A study of Mus musculus with 25 samples.

Results

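P53, encoded in mouse by Trp53, is a transcription factor that is held at a low level in unstressed cells by the ubiquitin ligase Mdm2 and its partner Mdm4, and that accumulates after DNA damage and other stress. It then binds paired half-sites in its target genes, among them genes that stop the cell cycle, genes of apoptosis, genes of DNA repair, and Mdm2 itself, which closes a feedback loop. In glia it is known mainly as a brake on proliferation, through Cdkn1a (p21), and as a tumour suppressor that is often lost in glioma. The genes described here are Trp53, its regulators and its direct targets, 32 symbols taken from a fixed list and all found among the 54429 entries of the expression table. They were Trp53 with 4 feedback regulators (Mdm2, Mdm4, Ppm1d, Ccng1), 6 genes of cell cycle arrest (Cdkn1a, Btg2, Gadd45a, Plk2, Plk3, Zmat3), 13 of apoptosis (Bax, Bbc3, Pmaip1, Fas, Tnfrsf10b, Apaf1, Pidd1, Perp, Aen, Ei24, Eda2r, Phlda3, Trp53inp1), 4 of repair and nucleotide supply (Xpc, Ddb2, Polk, Rrm2b) and 4 of metabolism and redox (Sesn1, Sesn2, Dcxr, Ephx1).

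RNA was sequenced from cortical astrocytes of C57BL/6J mice that had been purified by immunopanning on an antibody to HepaCAM and kept in culture. The age of the animals, and whether cells of several were pooled, are not stated here. The 25 libraries fall into 9 groups: P53 inhibitor and its own DMSO control (3 each), EGFR inhibitor and its DMSO control (3 each), HBEGF withdrawal and HBEGF (2 each), and days 2, 7 and 14 in vitro (3 each). Both inhibitors went into the medium on day 2 in vitro, and HBEGF, a ligand of the EGF receptor, was given or left out from the day of the preparation. No allele is altered in any group, and neither the identity and dose of the inhibitors nor the day of harvest of the treated cells is known from the labels. Nothing says whether replicates came from separate animals or cultures, so a p-value here reflects the spread among these libraries only, which may be technical.

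Depth ran between 4011468 and 9695705 gene-assigned reads in a library, with a median of 6109749. All 9 astrocyte markers were present in every group, at a summed 313.6 to 328.9 RPKM with the EGFR inhibitor, 268.6 to 272.7 RPKM after HBEGF withdrawal and 69.4 to 196.7 RPKM elsewhere. The main test described below called 5 of the 9 higher and 1 lower with the EGFR inhibitor. After withdrawal it called 5 higher and 2 lower. The 6 markers of oligodendrocyte precursors added up to 113.5 to 137 RPKM with the EGFR inhibitor and 322 to 418 RPKM with DMSO, and to 92.5 to 98.7 RPKM after HBEGF withdrawal and 391 to 418 RPKM with HBEGF. Of the 6, the main test called 1 higher and 3 lower with the EGFR inhibitor and 3 lower after withdrawal. Summed microglial markers were at most 2.27 RPKM outside the EGFR inhibitor and HBEGF withdrawal groups, whose values stand beside the results they move with. Mitochondrial ribosomal RNA took 24.7% of reads with the P53 inhibitor and 23.7% with its DMSO, 23.3% with the EGFR inhibitor and 18.7% with DMSO, 28.8% after withdrawal and 17.7% with HBEGF, and 14.5%, 19.2% and 21.8% on days 2, 7 and 14, which leaves a different share for all other genes. In bulk RNA, fewer cells of a type and less RNA per cell cannot be told apart.

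P53 binds a pair of half-sites, each a 10-base palindrome built around a CATG-like core. RefSeq (GRCm38.p6) promoter windows, 250 bases before to 50 bases after a transcription start, were at hand for 24 of the 32 genes. At least 1 match to the p53 half-site consensus was found in 12 of their 31 windows, those of 11 genes, and in 8.36% of all 32851 windows, either strand counted. The core CATGNNNNNNCATG, a pair of CATG cores at the spacing of adjoining half-sites, was found in 1 of the 31 windows, of Cdkn1a, against 0.712% of all windows. The Cdkn1a window is shown because Cdkn1a was called in 3 of the 6 comparisons described below. It surrounds the more upstream of 2 RefSeq starts, 2790 bases before the other, on the plus strand at chr17:29090729-29091028. Capitals mark the 20 bases with the paired core, which begin 51 bases before that start (chr17:29090928-29090947). Their first 10 bases match the half-site consensus, and their last 10 differ from it at their start. The window holds 1 more consensus match, upstream at chr17:29090906-29090915. A pair of consensus matches up to 13 bases apart was also found in 1 of the 31 windows, that of Cdkn1a, against 0.0731% of all windows.

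Cdkn1a: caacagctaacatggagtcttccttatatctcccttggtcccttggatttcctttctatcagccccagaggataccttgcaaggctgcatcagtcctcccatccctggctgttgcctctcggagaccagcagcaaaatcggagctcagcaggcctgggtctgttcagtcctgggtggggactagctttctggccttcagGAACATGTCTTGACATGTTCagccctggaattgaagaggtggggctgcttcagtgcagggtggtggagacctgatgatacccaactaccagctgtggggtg

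Single half-site matches of 4 further genes whose levels are described below are shown with 10 flanking bases on each side and the half-site in capitals. They lie at chr11:69580274-69580303 (plus strand) for Trp53, chr10:117710925-117710954 (minus) for Mdm2, chr11:40755452-40755481 (minus) for Ccng1 and chr11:85311112-85311141 (plus) for Ppm1d.
Trp53: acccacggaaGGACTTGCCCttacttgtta
Mdm2: agtcggatagGAACTTGCCTagcgaccatt
Ccng1: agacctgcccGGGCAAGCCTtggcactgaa
Ppm1d: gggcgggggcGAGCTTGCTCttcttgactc
The windows of 13 genes, Btg2, Plk2, Plk3, Pidd1 and Fas among them, held no such match. A match describes the letters of these 300 bases, and no match says only that they are not in this window.

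Across the 25 libraries the genes covered a wide range of levels. Because the deposited RPKM (reads scaled to library size and gene length) were found to be scaled by the whole gene span, introns included, levels are compared between genes only after rescaling the recovered reads to exon length. On that scale Ccng1, a cyclin that recruits a phosphatase to Mdm2, was highest with a median of 77.7, followed by Cdkn1a at 49.1, the detoxifying epoxide hydrolase gene Ephx1 at 45.8 and the RNA-binding gene Zmat3 at 30.2. The pore-forming Bax had 27.3, Trp53 itself 23.1 and Mdm2 21.6, all above the median of 4.10 over the genes tested. The BH3-only genes Bbc3 (PUMA) and Pmaip1 (NOXA), which trigger apoptosis, stood at 0.899 and 0.714, and Perp at 0.423. Ccng1, Cdkn1a, Ephx1 and Zmat3 thus led the set, and Bbc3, Pmaip1 and Perp stood near its lower end. RPKM values are used to compare 1 gene, or the sum of 1 set of markers, between groups. Such a sum weights its genes by span and is not a level to set against that of another cell type. In the GRCm38 annotation Trp53 (ENSMUSG00000059552.13) lies at chr11:69580359-69591873, Mdm2 (ENSMUSG00000020184.15) at chr10:117688875-117710758, Ccng1 (ENSMUSG00000020326.7) at chr11:40748552-40755311, Cdkn1a (ENSMUSG00000023067.14) at chr17:29090976-29100727 and Plk2 (ENSMUSG00000021701.8) at chr13:110395046-110400844.

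Of the 32 genes, 22 had 1 RPKM or more in 2 or more libraries and entered the main test, limma on log2(RPKM + 1) over 13850 genes with Benjamini-Hochberg adjustment, called at an adjusted p below 0.05. That scale understates the fold of low genes. The other 10 (Bbc3, Pmaip1, Fas, Tnfrsf10b, Apaf1, Perp, Ddb2, Polk, Rrm2b, Sesn1) did not, and are read from 2 settings that include all 32: limma with no filter, and voom on the recovered reads with a minimum of 10 reads in 2 libraries. RPKM being scaled by gene span, not all of these had few reads. Sesn1 had 146 to 524 reads a library and Apaf1 193 to 560. Xpc passed only through 2 of the EGFR inhibitor libraries, so it had to differ in that group to be tested, and Plk3 and Eda2r passed through 8 and 12 libraries. Exons of Cdkn1a, Gadd45a, Plk3, Ei24, Ddb2 and Rrm2b overlap a gene on the opposite strand and those of Bax and Ephx1 one on the same strand, and as it is not stated whether counting used strand, their reads may include some of the neighbour.

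**Figure D1:**
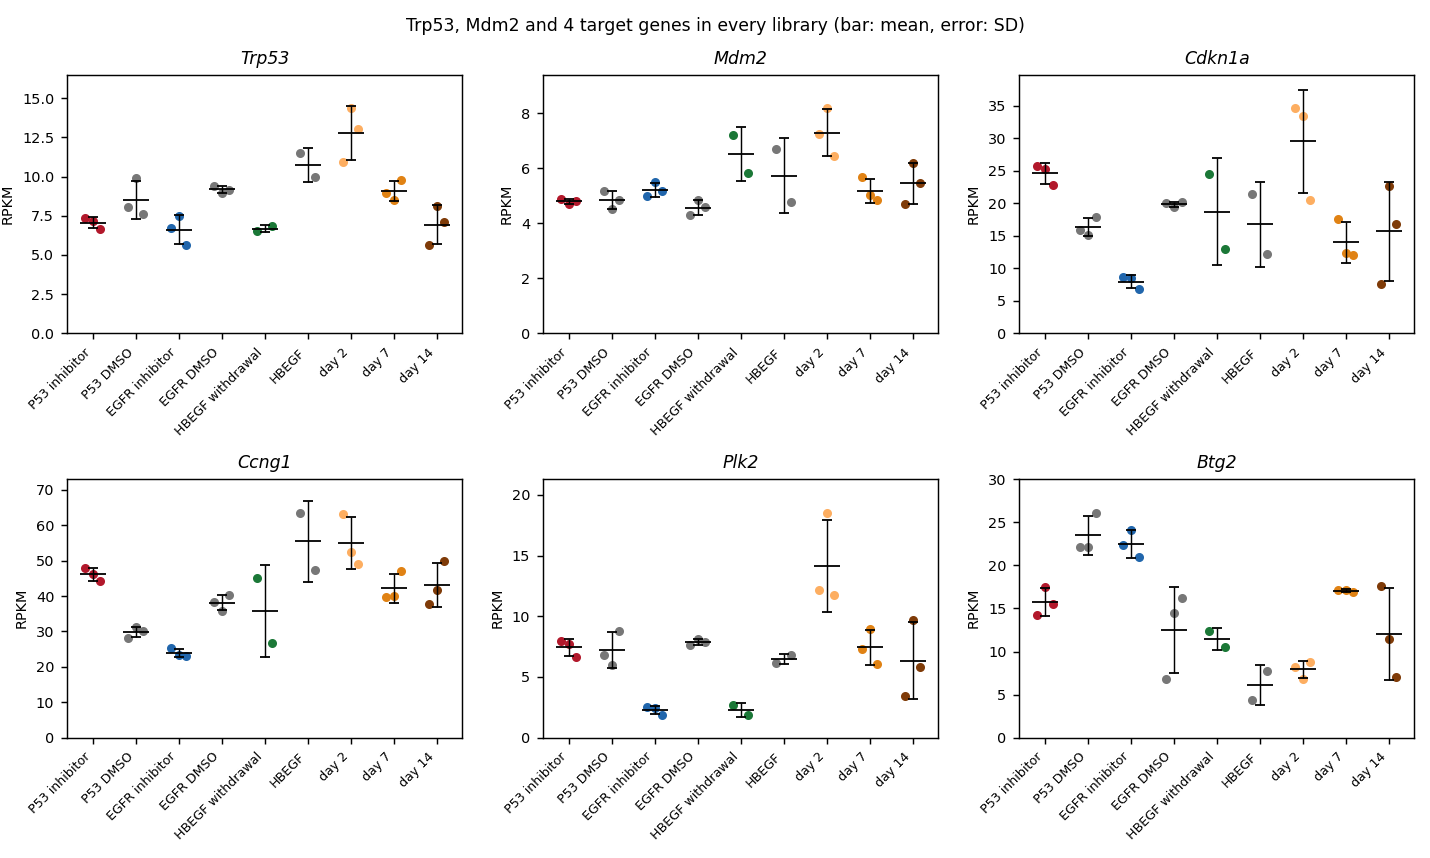
RPKM (vertical axes, from 0) of 6 genes in every library of the 9 groups (points), with the group mean (horizontal bar) and SD (error bar). The Cdkn1a mean is lowest with the EGFR inhibitor, at 7.96 RPKM, and Cdkn1a and Ccng1 are higher in all 3 P53 inhibitor libraries than in all 3 of their DMSO libraries.

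The first comparison asked what the P53 inhibitor did to P53 and its targets. P53 is known to activate Ccng1 and Cdkn1a, and both lay higher, not lower, in the libraries labelled P53 inhibitor, without passing the test, while Btg2, another known target, lay lower. P53 activity itself was not measured. Of the 22 genes tested, 0 were called in limma, in a comparison that called 0.181% of all genes (0.0289% higher, 0.152% lower). Of the 22, 15 had a log2 change above 0 and 7 below. At an unadjusted p below 0.05 there were 2 of the 22 (Ccng1 and Ephx1), among 1128 of all genes. Voom with the 10-read minimum called 1 of 32, Ccng1, higher, where it called 0.638% of all genes. Limma with no filter called 0 of 32, where it called 0.0483% of all genes.

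Trp53 had 7.35, 7.18 and 6.69 RPKM with the P53 inhibitor and 8.03, 9.91 and 7.60 RPKM with DMSO. The libraries did not overlap, but the difference was within what the fit allows for replicates (log2 change -0.23 ± 0.12, SE, limma adjusted p = 0.683). Mdm2 had 4.89, 4.72 and 4.80 RPKM with the inhibitor and 5.18, 4.50 and 4.86 RPKM with DMSO, and its groups overlapped (log2 change -0.01 ± 0.11, limma adjusted p = 1). Mdm4 and Ppm1d, the phosphatase that switches P53 off, overlapped as well.

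Ccng1 had 47.9, 46.2 and 44.3 RPKM with the P53 inhibitor and 28.2, 31.1 and 30.1 RPKM with its DMSO. Every inhibitor library was above every DMSO library, by 1.55 times on average. The log2 change was 0.61 ± 0.15 (limma adjusted p = 0.135). It was called higher under array weights (adjusted p = 0.00583), with voom on recovered reads (0.0381) and with voom at the 10-read minimum (0.0306), and in no other setting run.

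Cdkn1a, the cyclin-dependent kinase inhibitor, had 25.8, 25.3 and 22.8 RPKM with the P53 inhibitor and 15.9, 15.2 and 17.9 RPKM with DMSO. Its groups too were apart, with a ratio of means of 1.51, yet the spread of Cdkn1a over the other groups was wide and the log2 change of 0.57 ± 0.30 missed the threshold (limma adjusted p = 0.687). Btg2, an antiproliferative gene, lay the other way, with 14.2, 17.4 and 15.5 RPKM with the inhibitor and 22.2, 22.1 and 26.1 RPKM with DMSO (log2 change -0.55 ± 0.27, limma adjusted p = 0.632).

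Libraries did not overlap for 11 of 22 genes, where 20.3% of all genes did not. With the P53 inhibitor, 8 of 22 genes lay above all DMSO libraries (Ccng1, Cdkn1a, Plk3, Zmat3, Pidd1, Aen, Eda2r and Ephx1), where 9.05% of all genes did, and 3 of 22 lay below (Trp53, Btg2 and Xpc), where 11.3% of all genes did. The median log2 change of the 22 was 0.10, against -0.01 over all genes tested. The exonuclease gene Aen averaged 1.32 RPKM with the inhibitor and 0.878 RPKM with DMSO, and Ephx1 averaged 2.00 RPKM with the inhibitor and 1.47 RPKM with DMSO (limma adjusted p = 0.712 and 0.579). Among the low genes Pmaip1 had 35, 27 and 11 reads with the inhibitor and 8, 8 and 6 reads with DMSO, in voom an adjusted p of 0.464. Its groups did not overlap, on few reads. Summed astrocyte markers were 137.5 to 139.3 RPKM with the inhibitor and 151.7 to 168 RPKM with DMSO, and their part in these values was not tested.

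**Figure D2:**
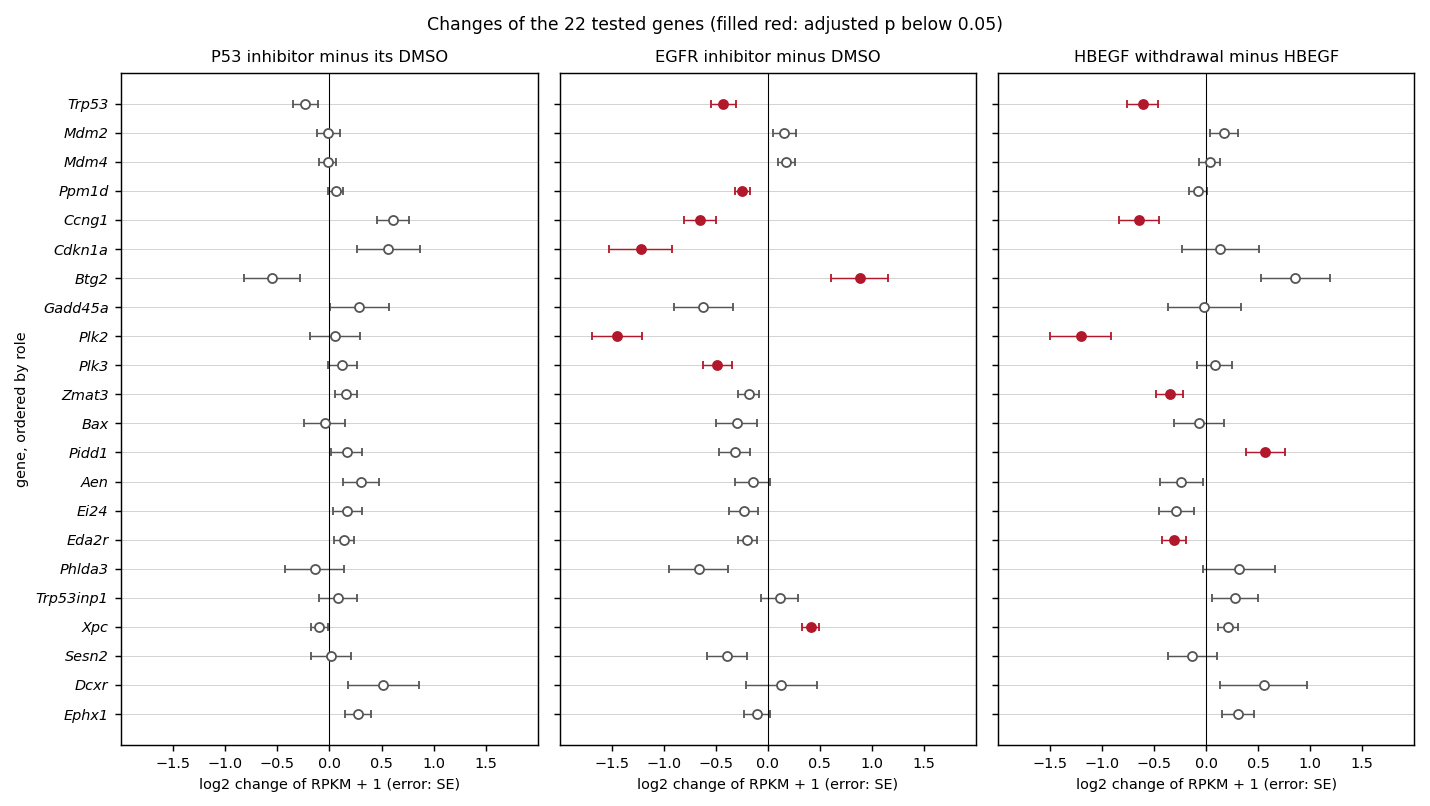
Log2 change of RPKM + 1 (horizontal axes) with its SE for the 22 tested genes, ordered by role from feedback genes at the top to metabolism at the bottom, for the P53 inhibitor minus its DMSO, the EGFR inhibitor minus DMSO and HBEGF withdrawal minus HBEGF. Filled red points passed limma at an adjusted p below 0.05: 0, 8 and 6 genes.

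The second comparison asked what happened to the P53 genes when the receptor for EGF, HBEGF and related growth factors was inhibited. Trp53, its feedback regulators Ppm1d and Ccng1, and the arrest genes Cdkn1a, Plk2 and Plk3 fell, while Btg2 and the damage recognition gene Xpc rose. That is 8 of 22 called, 2 higher and 6 lower (1 of the 2, Xpc, tested only because it was high in this group), where 38.5% of all genes were called, 16.3% higher and 22.2% lower, so the share called was close to that of all genes. The median log2 change of the 22 was -0.24, against -0.02 over all genes tested. Libraries did not overlap for 18 of 22 (4 higher, 14 lower), where 50.3% of all genes did not (21.6% higher, 28.7% lower).

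Trp53 had 6.70, 7.51 and 5.64 RPKM with the EGFR inhibitor and 9.41, 8.96 and 9.18 RPKM with DMSO. The groups did not overlap, and Trp53 fell to 0.720 of the DMSO mean (log2 change -0.43 ± 0.12, limma adjusted p = 0.00972). The call was lost without EGFR inhibitor replicate 3 (limma adjusted p = 0.0610), which had the lowest value of its group for 15 of the 22 genes (68.2%, against 36.6% of all genes). Ccng1 had 25.3, 23.2 and 23.1 RPKM with the inhibitor and 38.2, 35.9 and 40.4 RPKM with DMSO (log2 change -0.65 ± 0.15, limma adjusted p = 0.00248). All inhibitor libraries were lower, although quantile normalization took the call away (limma adjusted p = 0.128). Ppm1d had 1.10, 1.04 and 1.03 RPKM with the inhibitor and 1.51, 1.36 and 1.45 RPKM with DMSO (log2 change -0.25 ± 0.07, limma adjusted p = 0.0101), and missed the threshold under median-of-ratios scaling (adjusted p = 0.0527).

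Mdm2 did not follow Trp53: it had 4.98, 5.49 and 5.18 RPKM with the EGFR inhibitor and 4.29, 4.83 and 4.59 RPKM with DMSO. All 3 inhibitor libraries were above the DMSO libraries, by a log2 change of 0.16 ± 0.11 that did not pass (limma adjusted p = 0.281). Mdm4 lay likewise, at 4.10 RPKM with the inhibitor and 3.50 RPKM with DMSO (limma adjusted p = 0.0895), and was called higher under median-of-ratios scaling (adjusted p = 0.0204), where the split of the called genes was 3 higher and 5 lower, and after leaving out mitochondrial reads (adjusted p = 0.0202, 3 higher and 6 lower).

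Plk2, a polo-like kinase gene induced by P53 and by serum, had 2.49, 2.44 and 1.85 RPKM with the EGFR inhibitor and 7.63, 8.12 and 7.84 RPKM with DMSO. It fell to 0.287 of the DMSO mean in libraries that lay close together (log2 change -1.45 ± 0.24, limma adjusted p = 0.000103). Cdkn1a had 8.61, 8.54 and 6.74 RPKM with the inhibitor and 20, 19.4 and 20.1 RPKM with DMSO. It fell to 0.402 of the DMSO mean, with no overlap (log2 change -1.22 ± 0.30, limma adjusted p = 0.00369). Plk3, a related kinase gene, had 0.453, 0.314 and 0.522 RPKM with the inhibitor, on 10 to 16 reads a library, and 1.16, 1.02 and 0.825 RPKM with DMSO, on 36 to 39 reads (log2 change -0.48 ± 0.14, limma adjusted p = 0.00948). The calls of Plk2, Cdkn1a and Plk3 held in every setting that tested them.

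Btg2 went against the other arrest genes, with 22.4, 24.2 and 20.9 RPKM with the EGFR inhibitor and 6.76, 14.5 and 16.2 RPKM with DMSO. It rose 1.80 times without overlap (log2 change 0.88 ± 0.27, limma adjusted p = 0.0148). DMSO replicate 1 was far lower than the others, and without it the call was lost (limma adjusted p = 0.113), as in the fit of this experiment alone (0.0880). Gadd45a, Zmat3, Bax, Ei24, Eda2r, Phlda3, Sesn2 and Ephx1 were lower in all inhibitor libraries without passing. Among these the growth inhibitor gene Phlda3 averaged 2.84 ± 0.667 RPKM with the inhibitor and 5.03 ± 0.221 RPKM with DMSO (SD, n = 3 each, limma adjusted p = 0.0736, voom 0.0461).

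Of the 4 repair genes, Xpc and Ddb2 rose with the EGFR inhibitor, and Polk and Rrm2b were not called (voom adjusted p = 0.0858 and 0.449). Xpc, which finds helix distortions for nucleotide excision repair, had 0.988, 1.02 and 1.13 RPKM with the EGFR inhibitor and 0.529, 0.485 and 0.604 RPKM with DMSO (log2 change 0.41 ± 0.08, limma adjusted p = 0.000563). Since it passed the filter through this group, its test in voom with the 10-read minimum, which its 72 to 173 reads met in all libraries, is the one to read (adjusted p = 5.92e-05). Ddb2, its partner in recognition of ultraviolet damage, had 0.351, 0.236 and 0.293 RPKM with the inhibitor, on 36 to 52 reads, and 0.0871, 0.1 and 0.134 RPKM with DMSO, on 14 to 28 reads. The groups did not overlap, and Ddb2 rose in limma with no filter (adjusted p = 0.00213) and in voom (0.00069).

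Fas, the death receptor, had 0.490, 0.516 and 0.350 RPKM with the EGFR inhibitor and 0.119, 0.0364 and 0.0622 RPKM with DMSO. These are 296 reads in 3 inhibitor libraries and 56 reads in 3 DMSO libraries, a ratio of mean RPKM of 6.23 (limma with no filter, adjusted p = 6.53e-06, voom 3.43e-07). Sesn1, a sestrin that restrains mTORC1 signalling, had 0.913, 0.825 and 0.845 RPKM with the inhibitor, on 480 to 524 reads, and 0.276, 0.405 and 0.421 RPKM with DMSO. It rose 2.34 times (limma with no filter, adjusted p = 9.8e-05, voom 3.23e-07). Without a filter 11 of 32 genes were called, where 21.9% of all genes were, and in voom 13 of 32 (5 higher, 8 lower), where 46.9% of all genes were. Of 12 microglial markers 11 were present in the inhibitor libraries (Tmem119 was at 0), and their sum was 2.71 to 6.94 RPKM with the inhibitor and 0.502 to 1.10 RPKM with DMSO. The 10 neuronal markers summed to 4.84 to 5.68 RPKM with the inhibitor and 1.27 to 2.05 RPKM with DMSO, and 4 pericyte markers, with Kcnj8 at 0, to 1.21 to 1.45 RPKM with the inhibitor and 0.128 to 0.261 RPKM with DMSO. Of 3 neuronal markers tested, limma called 2 higher and 1 lower. The part of all these markers in these results, and that of the mitochondrial share, was not tested.

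The P53 inhibitor and EGFR inhibitor experiments have separate DMSO controls, so their changes can be set against each other. The P53 inhibitor change minus the EGFR inhibitor change was called for 7 of 22 genes, 5 higher and 2 lower, where 29.8% of all genes were called (16.6% higher, 13.2% lower). Voom called 15 of 32, where 35.2% of all genes were called. Limma with no filter called 10 of 32, where 15.2% were. The difference was 1.27 ± 0.22 for Ccng1, 1.79 ± 0.43 for Cdkn1a, 1.5 ± 0.34 for Plk2, 0.61 ± 0.20 for Plk3 and 0.31 ± 0.10 for Ppm1d on the log2 scale, and -1.43 ± 0.38 for Btg2 and -0.51 ± 0.11 for Xpc (limma adjusted p between 0.00032 and 0.0279). Xpc, subject to the same limit, was called in voom too (adjusted p = 0.000544). For all 7 the fitted changes had opposite signs under the 2 inhibitors, although with the P53 inhibitor 0 of them were called in limma. The P53 inhibitor changes of Plk2, Ppm1d and Plk3 were smaller than their SE (0.05 ± 0.24, 0.06 ± 0.07 and 0.12 ± 0.14), so their signs are not settled. For Trp53 the difference was 0.20 ± 0.17 (limma adjusted p = 0.445) and for Mdm2 -0.17 ± 0.15 (0.463). The differences of Ppm1d and Plk3 were each lost when some single libraries were left out (adjusted p up to 0.0665 and 0.0674).

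HBEGF withdrawal lowers input to the same receptor by removing its ligand, and asked whether the P53 genes answered alike. Trp53, Ccng1, Plk2, Zmat3 and the TNF receptor family gene Eda2r fell, and Pidd1, a scaffold of caspase-2 activation, rose: 6 of 22 called, 1 higher and 5 lower, where 32.6% of all genes were called, 10.0% higher and 22.5% lower. Which genes were called, and so the split between higher and lower, moved with the scaling. Median-of-ratios scaling, under which the median log2 change of all genes was 0 in place of -0.10, called 7 (5 higher, 2 lower), with Mdm2, Btg2, Xpc and Ephx1 joining Pidd1 above and Trp53 and Plk2 left below. Under that scaling 2146 of all 13850 genes were called higher and 1988 lower. Fitted on its own 4 libraries, limma called 0 of 13850 genes, with 3926 at an unadjusted p below 0.05, so all calls borrow the spread of the other groups.

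Trp53 had 6.51 and 6.83 RPKM after HBEGF withdrawal and 11.5 and 9.95 RPKM with HBEGF. It fell to 0.622 of the HBEGF mean (log2 change -0.61 ± 0.15, limma adjusted p = 0.00441). Plk2 had 2.66 and 1.85 RPKM after withdrawal and 6.16 and 6.77 RPKM with HBEGF (log2 change -1.21 ± 0.29, limma adjusted p = 0.00371). Both kept their calls under every scaling and with any library left out, and both lost them in the fit of this experiment alone (limma adjusted p = 0.0959 and 0.0787).

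Ccng1 had 45.1 and 26.7 RPKM after withdrawal and 63.6 and 47.3 RPKM with HBEGF. The group means differed by a log2 change of -0.64 ± 0.19 (limma adjusted p = 0.0136), but replicate 1 was far above replicate 2 in both groups, and the call was lost without HBEGF replicate 1 (0.166), without withdrawal replicate 2 (0.301) and under the 3 other scalings, which are median-of-ratios, quantile and leaving out mitochondrial genes (0.105 to 0.427). Zmat3 had 8.83 and 8.84 RPKM after withdrawal and 13.2 and 10.1 RPKM with HBEGF (log2 change -0.35 ± 0.13, limma adjusted p = 0.0433). Its call was lost without HBEGF replicate 1 (0.430), without either withdrawal library (0.118 and 0.126) and under the 3 scalings (0.386 to 0.663).

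Eda2r had 0.564 and 0.238 RPKM after withdrawal and 0.939 and 0.528 RPKM with HBEGF, so its groups overlapped although it was called (log2 change -0.31 ± 0.11, limma adjusted p = 0.0475). Without HBEGF replicate 1 or withdrawal replicate 2 it was not called (0.478 and 0.473). Pidd1 had 3.47 and 3.80 RPKM after withdrawal and 2.41 and 1.85 RPKM with HBEGF (log2 change 0.57 ± 0.19, limma adjusted p = 0.0249). It was higher in both withdrawal libraries, and the call was lost without withdrawal replicate 1 (0.0565), HBEGF replicate 2 (0.187) or withdrawal replicate 2 (0.120), and with array weights (0.0669).

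Cdkn1a had 24.5 and 12.9 RPKM after withdrawal and 21.4 and 12.1 RPKM with HBEGF. It followed the replicate number and not the treatment, and the groups overlapped (log2 change 0.14 ± 0.37, limma adjusted p = 0.840). Mdm2 had 7.21 and 5.84 RPKM after withdrawal and 6.70 and 4.76 RPKM with HBEGF (log2 change 0.17 ± 0.13, limma adjusted p = 0.377). It was called higher under median-of-ratios scaling (0.0237) and quantile normalization (0.0490). Btg2 had 12.3 and 10.6 RPKM after withdrawal and 4.42 and 7.71 RPKM with HBEGF (log2 change 0.85 ± 0.33, limma adjusted p = 0.0574). Libraries did not overlap for 8 of 22 genes (4 higher, 4 lower), where 56.9% of all genes did not (19.8% higher, 37.1% lower).

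Among the genes left out of the main test Fas had 0.387 and 0.391 RPKM after withdrawal, on 94 and 73 reads, and 0.187 and 0.0838 RPKM with HBEGF, on 54 and 19 reads. Sesn1 had 0.647 and 0.938 RPKM after withdrawal and 0.279 and 0.286 RPKM with HBEGF. Bbc3 had 0.733 and 0.547 RPKM after withdrawal, on 47 and 27 reads, and 0.354 and 0.117 RPKM with HBEGF, on 27 and 7 reads. All 3 were higher in both withdrawal libraries and were called in voom (adjusted p = 0.00132, 3.01e-06 and 0.0107) and in limma with no filter (0.00237, 0.000423 and 0.0133). Voom called 9 of 32 genes, where 38.3% of all genes were called, and limma with no filter 7 of 32, where 17.9% were. Summed microglial markers were 14.8 and 31.2 RPKM after withdrawal and 0.0421 and 0.298 RPKM with HBEGF. All 3 microglial markers that were tested were called higher. HBEGF libraries were too low to bring a marker past the filter of 1 RPKM in 2 libraries. These calls therefore add no separate support to the sums. Of the 12 listed, Tmem119 was at 0 after withdrawal. The 4 pericyte markers, with Kcnj8 at 0, summed to 1.43 and 1.74 RPKM after withdrawal and 0.197 and 0.283 RPKM with HBEGF. The 5 oligodendrocyte markers summed to 25 and 25.8 RPKM after withdrawal and 8.63 and 17.5 RPKM with HBEGF, and 3 of 4 tested were called higher. The part of these markers in the higher Fas, Sesn1, Bbc3 and Pidd1, and that of the mitochondrial share, was not tested.

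**Figure D3:**
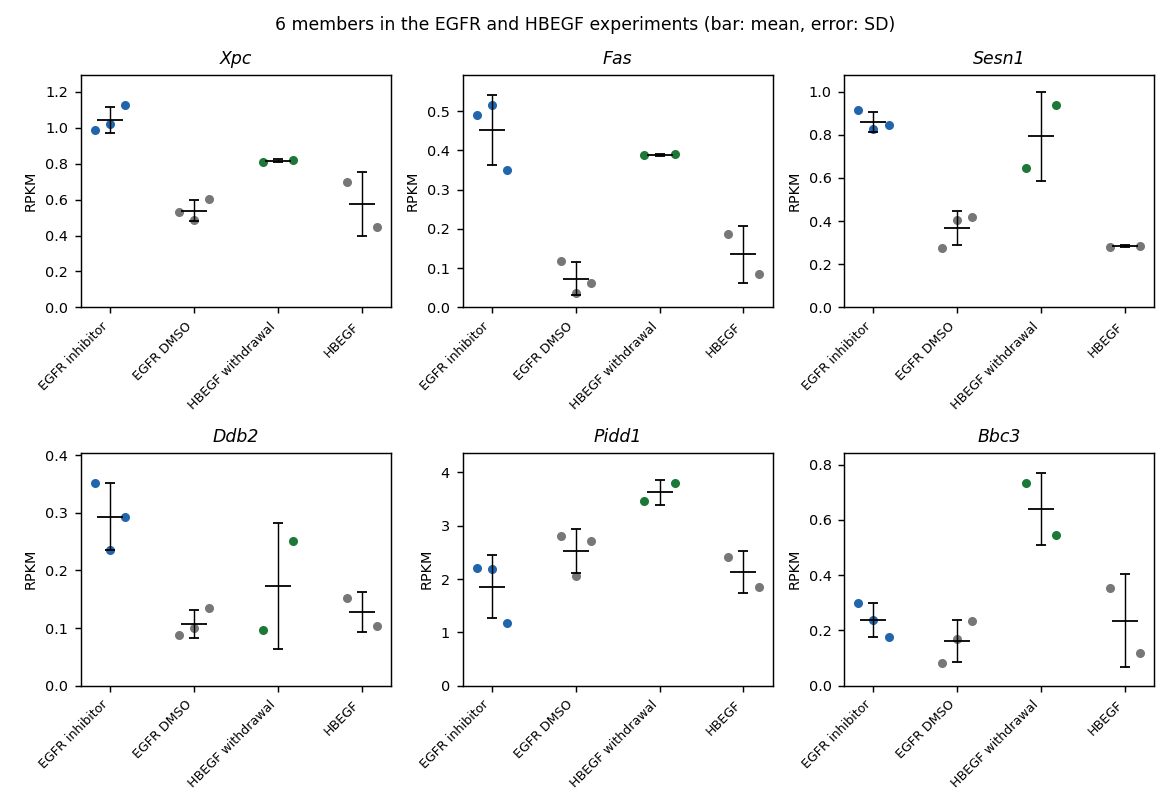
RPKM (vertical axes, from 0) of Xpc, Fas, Sesn1, Ddb2, Pidd1 and Bbc3 in every library (points) with mean and SD, for EGFR inhibitor, its DMSO, HBEGF withdrawal and HBEGF. Fas lies at 0.350 to 0.516 RPKM with the EGFR inhibitor and at 0.387 and 0.391 RPKM after withdrawal, above every DMSO and HBEGF library, and Pidd1 is above HBEGF after withdrawal while it overlaps DMSO with the EGFR inhibitor.

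The HBEGF withdrawal change minus the EGFR inhibitor change was called for 0 of 22 genes in limma, where 1.83% of all genes were called (0.556% higher, 1.27% lower). At an unadjusted p below 0.05 there were 4 of 22 (Cdkn1a, Phlda3, Pidd1 and Plk3), among 2189 of all genes, and voom with the 10-read minimum called 1 of 32, where 3.8% of all genes were called. Limma with no filter called 0 of 32, where 1.98% of all genes were called. The gene called by voom was Pidd1, with 1.17 to 2.21 RPKM with the EGFR inhibitor and 2.06 to 2.81 RPKM with DMSO beside its higher level after withdrawal. Its difference was 0.89 ± 0.24 (limma adjusted p = 0.0659), and it was called under median-of-ratios scaling, quantile normalization and without mitochondrial genes (lowest adjusted p 0.0313). For Cdkn1a the difference was 1.36 ± 0.48 (limma adjusted p = 0.163), so its fall under the EGFR inhibitor and its overlap after withdrawal were not shown to differ.

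Untreated culture gave the third setting, in which the cells were sampled on days 2, 7 and 14. The day comparisons share libraries, so their values are given side by side and are not independent. Trp53 and several targets were highest on day 2 of all 9 groups: Trp53 averaged 12.8 ± 1.72 RPKM there, Cdkn1a 29.5 ± 7.86 RPKM, Mdm2 7.29 ± 0.863 RPKM, and Plk2 14.1 RPKM (SD, n = 3). Next in order for Trp53 was HBEGF at 10.7 RPKM, and last was the EGFR inhibitor at 6.62 RPKM. The lower neighbours in that order, P53 inhibitor, day 14, withdrawal and EGFR inhibitor (6.62 to 7.07 RPKM), differed by less than the SD of the day 14 libraries (1.26). For Mdm2 all groups but day 2 lay between 4.57 and 6.52 RPKM.

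On day 7 against day 2, Trp53, Mdm2, Cdkn1a, Plk2 and Pidd1 fell and Btg2 rose: 6 of 22 genes called, 1 higher and 5 lower, where 13.7% of all genes were called, 4.12% higher and 9.59% lower. The median log2 change of the 22 was -0.23, against -0.05 over all genes tested. Libraries did not overlap for 7 of 22 (1 higher, 6 lower), where 27.5% of all genes did not (9.6% higher, 17.9% lower). The calls rested on few libraries: without day 2 replicate 2 there were 0 of 22 and without day 7 replicate 3 there was 1, Trp53, while quantile normalization and leaving out mitochondrial reads each kept 3 (1 higher, 2 lower) and the days fitted alone kept 0. Voom called 10 of 32 (2 higher, 8 lower), where 16.5% of all genes were called, and limma with no filter 5 of 32, where 5.99% were.

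On day 14 against day 7, 0 of 22 genes were called in limma, where 0.137% of all genes were (0.0505% higher, 0.0866% lower). Limma with no filter called 0 of 32, where 0.125% of all genes were called, and voom with the 10-read minimum 0 of 32, where 0.633% were. At an unadjusted p below 0.05 there was 1 of 22, Trp53, among 1483 of all genes. Libraries did not overlap for 3 of 22, Gadd45a higher and Trp53 and Mdm4 lower, where 13.4% of all genes did not (3.44% higher, 9.96% lower).

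On day 14 against day 2, Trp53, Mdm2, Cdkn1a, Plk2, Zmat3, Pidd1 and Aen fell and Ephx1 rose: 8 of 22, 1 higher and 7 lower, where 23.2% of all genes were called, 5.55% higher and 17.6% lower. The median log2 change was -0.16, against -0.11 over all genes tested. Median-of-ratios scaling, under which the median of all genes was 0, called 4 (1 higher, 3 lower): Trp53, Plk2 and Pidd1 below and Ephx1 above. Under that scaling 1195 of all 13850 genes were called higher and 1160 lower. The days fitted alone called 2 of 22 (0 higher, 2 lower), where 1287 of all 13850 genes were called (340 higher, 947 lower). Libraries did not overlap for 8 of 22 (2 higher, 6 lower), where 33.0% of all genes did not (8.32% higher, 24.7% lower). Same-numbered libraries of these days deviated together, and with the replicate number as a block 6 were called, Cdkn1a (limma adjusted p = 0.0502) and Aen (0.0772) being lost. Without day 14 replicate 1, which had the lowest value of its group for 15 of the 22 genes (68.2%, against 41.2% of all genes, as day 2 replicate 3 also had, against 35.8% of all genes), or without day 2 replicate 2, 4 were called, and these were Trp53, Plk2, Pidd1 and Ephx1 both times.

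Trp53 had 11, 14.4 and 13 RPKM on day 2, 8.94, 8.51 and 9.76 RPKM on day 7 and 5.61, 8.12 and 7.10 RPKM on day 14. No library of day 7 or day 14 reached those of day 2, and day 14 stood below day 7. The log2 change was -0.45 ± 0.12 for day 7 minus day 2 (limma adjusted p = 0.0216) and -0.80 ± 0.12 for day 14 minus day 2 (0.000169). The day 14 call held in every setting, whereas that of day 7 was lost in quantile normalization (0.0733), without mitochondrial reads (0.0530) and without any 1 of day 2 replicate 2, day 2 replicate 3, day 7 replicate 1 or day 7 replicate 2 (0.0556 to 0.112).

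Cdkn1a had 34.6, 33.5 and 20.4 RPKM on day 2, 17.6, 12.3 and 12 RPKM on day 7 and 7.56, 22.6 and 16.8 RPKM on day 14. Day 7 lay below day 2, and day 14 overlapped it through replicate 2. The log2 change was -1.01 ± 0.30 for day 7 minus day 2 (limma adjusted p = 0.0340) and -0.96 ± 0.30 for day 14 minus day 2 (0.0293). Each was lost under the 3 scalings (0.0543 to 0.0933) and on leaving out single libraries, day 2 replicates 1 and 2 with day 7 replicates 2 and 3 for the first (0.0971 to 0.130), and day 2 replicates 1 and 2 with day 14 replicate 1 for the second (0.101 to 0.203).

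Mdm2 had 7.24, 8.19 and 6.46 RPKM on day 2, 5.69, 5.02 and 4.85 RPKM on day 7 and 4.71, 6.18 and 5.46 RPKM on day 14. Day 2 was above both later days in every library. The log2 change was -0.42 ± 0.11 for day 7 minus day 2 (limma adjusted p = 0.0166) and -0.36 ± 0.11 for day 14 minus day 2 (0.0217). The first was lost without day 2 replicate 2 (0.0926) or day 7 replicate 3 (0.0669), in quantile normalization (0.0609) and without mitochondrial genes (0.0505), and the second without day 14 replicate 1 (0.125) or day 2 replicate 2 (0.117) and under all 3 scalings (0.153 to 0.244).

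Plk2 had 12.1, 18.5 and 11.8 RPKM on day 2, 7.28, 8.94 and 6.06 RPKM on day 7 and 3.43, 9.71 and 5.84 RPKM on day 14. It was lower on both later days without overlap (log2 change -0.83 ± 0.24, limma adjusted p = 0.0263, for day 7 minus day 2, and -1.11 ± 0.24, 0.00237, for day 14 minus day 2). Leaving out day 2 replicate 2 (0.145), day 7 replicate 1 (0.0620) or day 7 replicate 3 (0.110) ended the day 7 call. Pidd1 had 4.17, 4.27 and 3.52 RPKM on day 2, 2.71, 2.36 and 1.69 RPKM on day 7 and 1.24, 2.00 and 1.87 RPKM on day 14. It fell to 0.565 of the day 2 mean on day 7 (log2 change -0.63 ± 0.15, limma adjusted p = 0.0108) and to 0.427 on day 14 (-0.89 ± 0.15, 0.000394). The day 7 call of Pidd1 was lost without day 2 replicate 2 (0.0518) or day 7 replicate 3 (0.0637), and its day 14 call held in every setting.

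Btg2 had 8.20, 6.83 and 8.77 RPKM on day 2, 17.2, 17.2 and 16.9 RPKM on day 7 and 17.6, 11.5 and 7.03 RPKM on day 14. It was 2.15 times higher on day 7 than on day 2 (log2 change 1.02 ± 0.27, limma adjusted p = 0.0183), a call lost without day 2 replicate 2 (0.0805) and marginally without day 7 replicate 3 (0.0501), and its day 14 libraries spread over the whole range between. Zmat3 fell to 10.1 ± 1.34 RPKM on day 14, with 8.59, 10.4 and 11.2 RPKM, against 13.1, 12.8 and 12.9 RPKM on day 2 (log2 change -0.34 ± 0.10, limma adjusted p = 0.0254). The Zmat3 call was lost under all 3 scalings (0.206 to 0.418) and without day 14 replicate 1 (0.154) or any 1 of the day 2 libraries (0.0535 to 0.0618).

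Aen had 0.672, 1.68 and 1.47 RPKM on day 14 and 2.45, 2.69 and 1.61 RPKM on day 2, and its groups overlapped although it was called (log2 change -0.53 ± 0.17, limma adjusted p = 0.0328). That call was lost under the 3 scalings (0.0912 to 0.104) and without day 14 replicate 1 (0.215) or day 2 replicates 1 or 2 (0.0973 and 0.147). Ephx1 had 3.15, 3.29 and 2.95 RPKM on day 14 and 2.37, 2.00 and 1.76 RPKM on day 2. It rose 1.53 times without overlap (log2 change 0.44 ± 0.12, limma adjusted p = 0.0135), and the call was lost without day 2 replicate 3 (0.0597) and in the fit of the days alone.

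Perp and Apaf1, both left out of the main test, were read from voom and from limma with no filter. Perp, which codes for a membrane protein of desmosomes, had 29, 14 and 13 reads on day 2, 1, 2 and 2 reads on day 7 and 2, 1 and 5 reads on day 14, or 0.250 ± 0.00245 RPKM on day 2, 0.0285 ± 0.0167 RPKM on day 7 and 0.0346 ± 0.0302 RPKM on day 14 (SD, n = 3 each). It fell in voom (adjusted p = 0.00300 for day 7 and 0.00151 for day 14, each against day 2) and in limma with no filter (0.0110 and 0.00691). Apaf1, the adaptor of the apoptosome, averaged 0.490 ± 0.00858 RPKM on day 14 and 0.746 ± 0.118 RPKM on day 2 (voom adjusted p = 0.00176, limma with no filter 0.0101). In voom 13 of 32 genes were called for day 14 against day 2 (3 higher, 10 lower), where 28.2% of all genes were, and limma with no filter called 8, where 11.2% were. Summed astrocyte markers were 117.2 to 196.7 RPKM on day 14 and 69.4 to 102.4 RPKM on day 2. Summed neuronal markers were 0.755 to 1.51 RPKM on day 14 and 3.66 to 3.82 RPKM on day 2, and microglial markers 0.170 to 0.283 RPKM on day 14 and 0.809 to 2.27 RPKM on day 2, each with 1 of 3 tested called lower. Their part, and that of the mitochondrial share, in the day results was not tested.

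**Figure D4:**
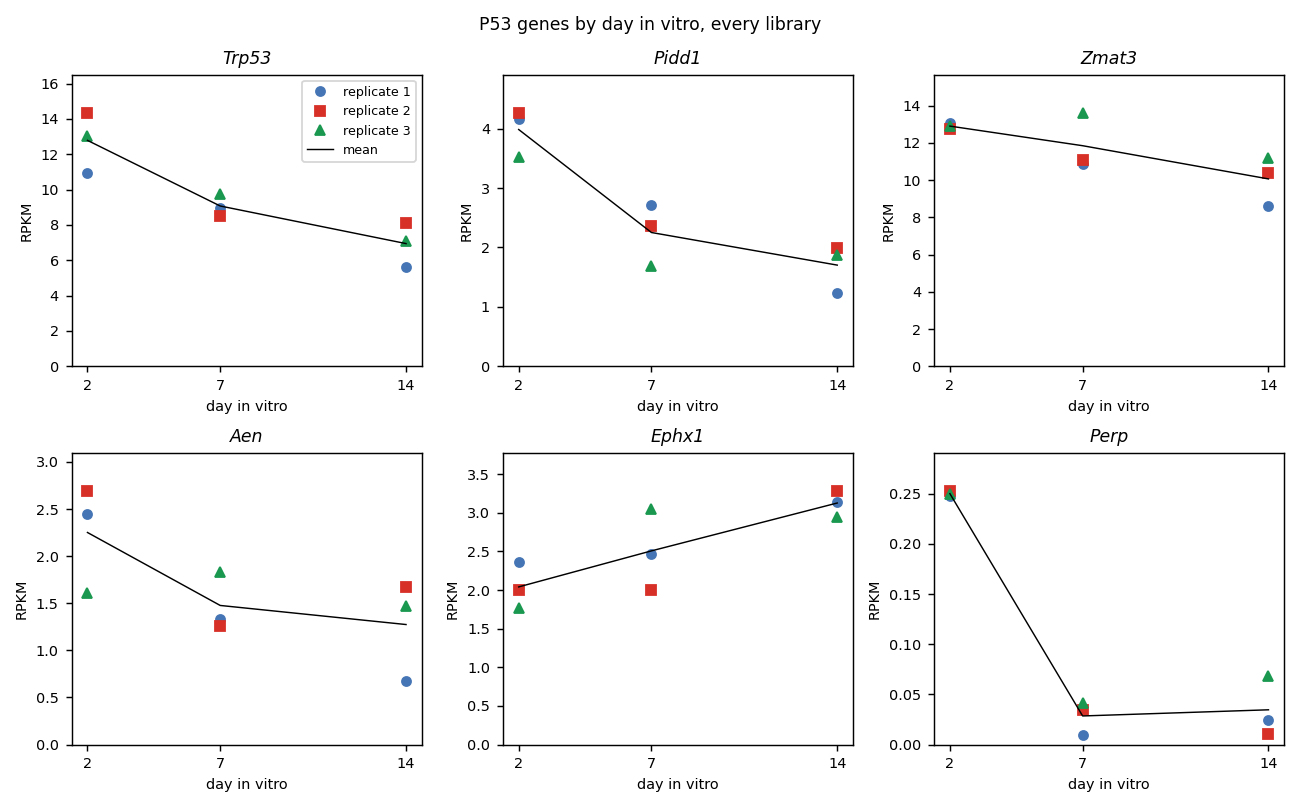
RPKM (vertical axes, from 0) against day in vitro (horizontal axes: 2, 7 and 14) for Trp53, Pidd1, Zmat3, Aen, Ephx1 and Perp, with a point for each library, shaped by replicate number, and a line through the means. Day 2 lies above day 14 in every library for Trp53, Pidd1, Zmat3 and Perp, whereas Aen overlaps and Ephx1 is higher on day 14.

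The remaining genes gave less. Of the 22 tested, 8 (Bax, Dcxr, Ei24, Gadd45a, Mdm4, Phlda3, Sesn2 and Trp53inp1) were called in 0 of the 6 comparisons in limma as fitted on all 25 libraries, and of the 10 untested ones 3 (Pmaip1, Polk and Rrm2b) in 0 of them by voom. For the EGFR inhibitor, other settings called Phlda3, Mdm4, Sesn2, Bax, Ei24 and Gadd45a, each of them in the fit of that experiment alone (adjusted p = 0.0189 to 0.0403). Bax ran from 5.87 to 12.5 RPKM over the 25 libraries, with its highest mean on day 2 (10.8 RPKM) and its lowest with the EGFR inhibitor (6.62 RPKM). Ei24, which codes for a membrane protein of autophagy and apoptosis, ran from 4.44 to 8.45 RPKM. Sesn2, a stress-induced sestrin gene, was highest with the P53 inhibitor (3.43 RPKM) and its DMSO (3.37 RPKM), and lowest with the EGFR inhibitor (1.22 RPKM). Trp53inp1, which codes for a cofactor of P53 and of autophagy, was also highest with the P53 inhibitor (9.33 RPKM) and its DMSO (8.78 RPKM). Dcxr, a xylulose reductase gene, and Gadd45a, a stress sensor gene, rested on few reads, from 11 to 103 and from 12 to 109 in a library. Polk, a translesion polymerase gene, and Rrm2b, a ribonucleotide reductase subunit gene, stayed within 0.431 to 0.837 RPKM and 0.283 to 0.557 RPKM.

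Genes around the P53 network were read from 5 further lists. In all, 31 genes known to be lowered through p21 and the DREAM repressor complex, most of them cell cycle genes, had 30 tested. With the EGFR inhibitor 29 of 30 fell (median log2 change -1.46), where 22.2% of all genes fell, among them the sliding clamp gene Pcna at 5.86 ± 0.523 RPKM with the inhibitor and 19.2 ± 2.06 RPKM with DMSO and the helicase gene Mcm5 at 1.29 ± 0.234 RPKM with the inhibitor and 5.18 ± 0.348 RPKM with DMSO (limma adjusted p = 9.91e-06 and 1.32e-05). After withdrawal 23 of 30 fell, on day 7 against day 2 26 of 30 and on day 14 against day 2 19 of 30 (median log2 changes -1.20, -0.96 and -0.88), where 22.5%, 9.59% and 17.6% of all genes fell. Under median-of-ratios scaling the counts, from the EGFR inhibitor on, were 29, 20, 14 and 12, where 2635, 1988, 763 and 1160 of all 13850 genes fell. The list was called in 0 of 30 genes with the P53 inhibitor, in limma and in voom on recovered reads, where 26 of 30 had a log2 change above 0 (median 0.18, against -0.01 over all genes tested). Cdkn1a, whose product acts upstream of that complex, was itself called lower with the EGFR inhibitor and on days 7 and 14 against day 2. Its day 14 libraries overlapped those of day 2. With the P53 inhibitor Cdkn1a was higher in all 3 libraries without passing. The part of Cdkn1a in the values of this list was not tested.

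Of 48 other P53 targets 32 were tested, and they moved both ways. With the EGFR inhibitor 7 rose and 14 fell, where 16.3% and 22.2% of all genes did. After withdrawal 8 rose and 10 fell (all genes 10.0% and 22.5%), on day 7 against day 2 4 rose and 4 fell (4.12% and 9.59%), and on day 14 against day 2 5 rose and 6 fell (5.55% and 17.6%). Median-of-ratios scaling gave 8 and 11, 9 and 5, 5 and 2, and 7 and 4, so under it only the EGFR inhibitor comparison had more below than above. Of all 13850 genes that scaling called, in the same order, 2752 and 2635, 2146 and 1988, 665 and 763, and 1195 and 1160. Igfbp3, which binds insulin-like growth factors, fell to 1.56 ± 0.371 RPKM with the EGFR inhibitor, against 38.3 ± 6.77 RPKM with DMSO, and the matrix gene Thbs1 rose to 3.70 ± 0.721 RPKM, against 0.424 ± 0.225 RPKM (limma adjusted p = 2.27e-08 and 9.91e-06). Polh, a translesion polymerase gene, fell with the EGFR inhibitor and on both later days, to 0.564 ± 0.0810 RPKM with the inhibitor, against 1.62 ± 0.249 RPKM with DMSO (limma adjusted p = 1.51e-05). Foxo3, a forkhead factor gene, rose with the EGFR inhibitor to 1.87 ± 0.0246 RPKM, against 0.856 ± 0.0306 RPKM with DMSO (limma adjusted p = 1.06e-05). With the P53 inhibitor 0 of 32 were called in limma and 0 of 31 in voom on recovered reads.

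Of 9 tested upstream kinases and damage sensors, 2 fell with the EGFR inhibitor, 4 after withdrawal, 2 on day 7 and 1 on day 14 against day 2, and 0 rose (median-of-ratios scaling called 1 higher in each of the first 3). All genes called lower were 22.2%, 22.5%, 9.59% and 17.6% in these comparisons, so the EGFR inhibitor count is at that share. The checkpoint kinase gene Chek1 was in all of these, at 0.683 ± 0.173 RPKM with the EGFR inhibitor and 2.92 ± 0.722 RPKM with DMSO (limma adjusted p = 1.04e-05). Chek1 is also on the list of genes lowered through p21 and DREAM, and was counted in each list. Of 10 tested genes that set the level of P53, 1 rose and 3 fell with the EGFR inhibitor, 4 fell after withdrawal, and 3 fell on day 7 and on day 14 against day 2, against the same shares of all genes. The nucleolar protein gene Npm1, which holds Arf and Mdm2, led them, at 9.33 ± 0.737 RPKM with the EGFR inhibitor and 26.0 ± 1.62 RPKM with DMSO (limma adjusted p = 1.52e-07). The deubiquitinase gene Usp7, which acts on P53 and Mdm2, fell after withdrawal to 0.987 ± 0.0960 RPKM, against 1.76 ± 0.102 RPKM with HBEGF (limma adjusted p = 0.000559). Of 4 tested P53 family members and partners 1, Trp53bp2, rose with the EGFR inhibitor (1.70 ± 0.108 RPKM, against 1.35 ± 0.0809 RPKM with DMSO, limma adjusted p = 0.0064). These 3 lists had 0 genes called with the P53 inhibitor in limma and in voom on recovered reads.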

How the data were processed

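Total RNA of immunopanned mouse astrocytes in culture was extracted with miRNeasy and sequenced as 25 libraries after Ovation RNA-seq V2 and NEBNext Ultra preparation, per the labels' protocols. STAR, HTSeq, edgeR, limma and GRCm38 are named in the submitters' processing notes, with neither version nor role. The deposited RPKM values of 54429 entries are the authors' normalized values in 1 table, and their annotation release is not stated. Of the entries, 53713 (98.7%) matched a GRCm38 annotation, and the values fit the whole gene span as length. Whole reads were recovered from the steps between values: 99.0% to 99.3% of low values (up to 20 reads) came out whole within 0.1. No pair of libraries was identical, and the highest correlation was 0.971.

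The main test was limma 3.58.1 (R 4.3.3) on log2(RPKM + 1) with a mean for each of 9 groups, 16 residual degrees of freedom, a trended robust prior, genes of at least 1 RPKM in 2 libraries, and Benjamini-Hochberg adjustment within each comparison over 13850 genes. Groups came from the sample labels. Other settings run were a filter of 5 RPKM, none at all, a smaller pseudocount (0.1), quantile and median-of-ratios scaling, no mitochondrial genes, each experiment alone, the replicate number as a block, a plain prior, array weights and leaving out each library. Voom on recovered reads, also with a minimum of 10 reads, was added after seeing the data. Depth limits low genes, and precision rests on 2 or 3 libraries a group.

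Same-numbered libraries of day 14 and day 2 deviated together (correlations 0.155, 0.265 and 0.189 over 2192 genes), so the block values stand beside those results where they change a call. The fit was tested on simulated data. The 32 genes, the further lists and the markers were chosen with earlier results of these data known. Values per library are given for Trp53, Cdkn1a, Mdm2 and up to 6 called genes a direction, with further genes that were chosen after their values were seen; of each list up to 3 called genes a direction. 1 result of these lists is not reported here.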

Additional observations from a re-analysis of the deposited data

Results flagged for a closer look

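For 7 genes the log2 change with the P53 inhibitor differed from that with the EGFR inhibitor, each taken against its own DMSO libraries, in a test of the difference itself (limma adjusted p below 0.05). These were 7 of 22 tested, where 29.8% of all genes were called, so the share called was close to that of all genes. The P53 inhibitor change minus the EGFR inhibitor change was 1.79 for Cdkn1a, 1.5 for Plk2, 1.27 for Ccng1, 0.61 for Plk3 and 0.31 for Ppm1d. It was -1.43 for Btg2 and -0.51 for Xpc. All 3 libraries labelled P53 inhibitor lay above their DMSO libraries for Cdkn1a and Ccng1, and all 3 EGFR inhibitor libraries lay below theirs. The calls of Ppm1d and Plk3 were lost on leaving out some single libraries. Xpc passed the filter through EGFR inhibitor libraries only, and voom with a 10-read minimum, in which it had 72 or more reads in every library, also called its difference (adjusted p = 0.000544).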

How the results depend on the processing

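Of the 51 gene values checked, no called one turned its sign under the alternatives run, though the split of calls moved with the scaling after HBEGF withdrawal. Counts of P53 genes called were within 1.5 times of the reported ones except as follows. With the P53 inhibitor (0 of 22), array weights, voom on recovered reads and voom with a 10-read minimum gave 1 each. With the EGFR inhibitor (8) a 5 RPKM filter gave 5, the experiment alone 13 and 10-read voom 13. After HBEGF withdrawal (6) the experiment alone gave 0 and array weights 3. For day 7 against day 2 (6) quantile normalization gave 3, leaving out mitochondrial genes 3, the days alone 0 and 10-read voom 10. For day 14 against day 2 (8) a 5 RPKM filter gave 5, median-of-ratios 4, quantile 4, no mitochondrial genes 4, the days alone 2 and 10-read voom 13. For the P53 inhibitor change minus the EGFR inhibitor change (7) a 5 RPKM filter gave 4, array weights 12 and 10-read voom 15. For the withdrawal change minus the EGFR inhibitor change (0) median-of-ratios, quantile, no mitochondrial genes and 10-read voom gave 1 each. Leaving out 1 library gave 0 to 0, 7 to 8, 3 to 6, 0 to 5, 4 to 9, 5 to 8 and 0 to 0 in the same order, and 0 to 0 for day 14 against day 7. The smaller counts under the 5 RPKM filter come with fewer genes tested, and for the others the cause was not tested.

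Counts over all genes moved too. With the P53 inhibitor (25) the 5 RPKM filter gave 8, the replicate block 6, array weights 334, voom 75, 10-read voom 115 and leaving out a library 2 to 37. With the EGFR inhibitor (5337) the filter gave 2069, 10-read voom 8447 and leaving out a library 4565 to 4823, and after withdrawal (4511) the filter gave 1882, the experiment alone 0, 10-read voom 6893 and leaving out a library 3165 to 3853. For day 7 against day 2 (1899) these were 825, 190, 2969 and 938 to 1691, and for day 14 against day 2 (3208) 1267, 1287, 5083 and 2080 to 2995. For day 14 against day 7 (19) no filter gave 44, the days alone 0, the block 7, voom 51, 10-read voom 114 and leaving out a library 0 to 19. For the P53 inhibitor minus EGFR inhibitor difference (4129) the filter gave 1638, 10-read voom 6337 and leaving out a library 3529 to 3918. For the withdrawal minus EGFR inhibitor difference (253) no filter gave 696, the filter 100, the block 63, voom 396, 10-read voom 684 and leaving out a library 108 to 220.

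With the replicate number as a block, P53 genes called were 0 with the P53 inhibitor, 10 with the EGFR inhibitor, 5 after withdrawal (Pidd1, the 1 higher call, being lost at a limma adjusted p of 0.0574), 5 for day 7 and 6 for day 14 against day 2, and 0 for day 14 against day 7. Outside day 14 against day 2, same-numbered libraries did not deviate together in every pair (correlations -0.258 to 0.206), apart from the 2 HBEGF pairs at 0.120, too few to decide, so the samples there share only a number. Of 51 gene values the pseudocount of 0.1 and the plain prior each left 51 on the same side of the threshold, median-of-ratios 40, quantile 39 and no filter 45. Genes with few reads, with 2 libraries in the HBEGF groups, are the least precise.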
